A study of Mus musculus with 12 samples.

Results

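Genes that modify, conjugate and export foreign compounds and endogenous lipids were described across 12 expression arrays of laser-dissected mouse intestinal epithelium. The set was a list of 46 symbols covering cytochromes P450 outside the Cyp3a family, carboxylesterases, alcohol and aldehyde dehydrogenases, a flavin monooxygenase, the conjugating enzymes and 3 efflux pumps. A member counted as measured when a probe set of the array was assigned to its symbol alone, and 43 of the 46 were measured among 19938 named genes. Por, the electron donor of microsomal P450s, and the carboxylesterase Ces2c had no probe set assigned to them alone here, and Gsta1 was reached only by probe sets shared with other genes. Gstp1 and Cyp2c67 had a probe set of their own beside others shared with near-identical copies, so their values may include signal from those copies.

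All mice were males on a C57BL6/J APCmin/+ background, in which loss of the remaining Apc allele produces intestinal adenomas. They were either FSPCre-PPARB -/- (here KO) or PPARB flox/flox littermates (here floxed), and intestines were taken at 25 weeks of age, or earlier where weight loss required it. FSP is a fibroblast-associated gene product, so this Cre is directed to stromal cells and not to the epithelium that was dissected. Tumor epithelium gave 3 arrays of each genotype, and epithelium next to tumors gave 2 arrays of each. The other 2 adjacent arrays carried contradictory genotype labels. The first, here conflict array 1, is KO by its title and floxed by its genotype entry, and conflict array 2 is the reverse. No label ties an array to an animal, so the p-values measure the spread between arrays, which may be technical.

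Detoxification runs in stages. Phase I enzymes, chiefly P450s, flavin monooxygenases, carboxylesterases and dehydrogenases, introduce or expose a reactive group. Phase II enzymes attach glucuronic acid, glutathione, sulfate or an acetyl group, and ATP-driven pumps then export the products. In the small intestine these genes are typical of mature absorptive cells of the villus, and nuclear receptors such as PXR (Nr1i2), CAR (Nr1i3) and the HNF4 factors (Hnf4a, Hnf4g) are known to drive many of them.

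Stretches of 250 bases before the annotated start are shown for 4 members, 3 P450s and a pump, because they hold a match to 1 of 2 response elements and their KO tumor and KO adjacent arrays did not overlap. They were chosen after their values were seen, and other members with a match are not shown. They come from RefSeq on GRCm38.p6 and run 5′ to 3′ along the gene. Capitals mark CAAAGTCCA, the core of a site for HNF4 factors, in Cyp2c65 and Cyp2c67. In Abcc2 and Cyp4f14 they mark TGACNNNGC, the antioxidant response element bound by Nrf2.
Cyp2c65, chr19:39060756-39061005, plus strand: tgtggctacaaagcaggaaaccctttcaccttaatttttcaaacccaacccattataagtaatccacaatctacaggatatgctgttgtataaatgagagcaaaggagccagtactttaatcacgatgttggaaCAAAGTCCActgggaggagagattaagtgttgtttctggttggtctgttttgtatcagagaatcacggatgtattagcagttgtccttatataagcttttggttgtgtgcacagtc
Cyp2c67, chr19:39649043-39649292, minus strand: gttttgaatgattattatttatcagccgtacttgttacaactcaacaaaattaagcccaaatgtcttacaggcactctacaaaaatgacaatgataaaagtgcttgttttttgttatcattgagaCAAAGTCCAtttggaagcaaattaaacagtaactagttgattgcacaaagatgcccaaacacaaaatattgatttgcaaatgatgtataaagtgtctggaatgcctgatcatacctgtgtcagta
Abcc2, chr19:43782058-43782307, plus strand: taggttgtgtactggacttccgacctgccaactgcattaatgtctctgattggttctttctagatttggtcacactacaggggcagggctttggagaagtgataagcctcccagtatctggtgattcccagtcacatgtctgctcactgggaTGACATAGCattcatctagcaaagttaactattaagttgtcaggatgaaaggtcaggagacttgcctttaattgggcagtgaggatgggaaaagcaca
Cyp4f14, chr17:32917088-32917337, minus strand: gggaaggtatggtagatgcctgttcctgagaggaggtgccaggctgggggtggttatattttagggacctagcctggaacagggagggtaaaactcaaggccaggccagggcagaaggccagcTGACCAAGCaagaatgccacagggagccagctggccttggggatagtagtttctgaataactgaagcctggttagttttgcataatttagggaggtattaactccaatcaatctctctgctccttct

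Counted back from the start, the HNF4 match spans -116 to -108 in Cyp2c65 and -125 to -117 in Cyp2c67. The antioxidant match spans -98 to -90 in Abcc2 and -127 to -119 in Cyp4f14. Windows were at hand for 39 of the 43 members, 49 windows in all, and both strands were searched. CAAAGTCCA was in 2 of the 49 windows (4.08%) against 0.384% of 32851 windows of all genes. Both windows belong to Cyp2c genes on chromosome 19, a single family, and the letters were chosen after the values were seen. The share is therefore no measure of the set as a whole. TGACNNNGC was in 4 of them (8.16%; Gsta3 and Mgst1 are the others), against 10.2% of all. The dioxin element TNGCGTG was in Aldh3a2 and Sult1d1 (4.08% against 4.10%). AGGTCA repeated after 1 free base, the site of PPAR and HNF4 dimers, was in 0 of the member windows and 0.0335% of all, and CAAAGGTCA, another form of the HNF4 site, in 0 and 0.426%. Of the other motifs searched, the HNF1 site was in 1 window (2.04% against 0.371%), TTTATNG, the CDX site, in 4 (8.16% against 9.81%) and AGATAA, bound by GATA factors, in 9 (18.4% against 9.99%). These are matches of letters and were not tested as binding sites. Cyp2c55, Cyp2c65, Cyp2c66 and Cyp2c29 directly follow one another on chromosome 19 in the RefSeq gene order, and Ugt2b36 and Ugt2b5 are neighbours on chromosome 5, so members of a family also share a place in the genome.

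Values are deposited log2 expression, so a difference of 1 is a 2-fold change. Both floxed adjacent arrays and floxed tumor arrays 1 and 2 had weak signal: their median correlation with the other arrays was 0.507 to 0.611, against 0.818 to 0.852 for the other 8, and their SD of log2 values was 1.04 to 1.09 against 1.49 to 1.57. Pan-epithelial markers (12 genes) averaged 4.94 to 5.88 in these 4 arrays and 6.40 to 8.11 in the other 8. Floxed tumor array 3 was thus the single floxed array of undisputed label without weak signal. Ppard, the floxed gene, was at 6.06, 6.07 and 6.50 in the KO tumor arrays and at 4.95, 4.48 and 5.79 in the floxed tumor arrays. Its level in epithelium does not check a deletion directed to stroma. Wnt targets known to be high in Apc-mutant adenomas (19 measured) averaged 4.63 to 4.70 in the KO tumor arrays and 5.39 and 5.66 in the KO adjacent arrays, which goes against the tissue labels. The tissue names below are therefore those of the labels. In floxed arrays the Wnt targets averaged 4.63, 4.48 and 4.57 in tumor and 4.59 and 4.72 in adjacent epithelium. Whether tumor and adjacent labels were exchanged could not be settled. In both genotypes, an exchange would turn the sign of every tumor minus adjacent difference given here. In KO arrays alone, it would turn those within KO and make the genotype comparisons set unlike tissues against each other. Hepatocyte markers (8 measured) averaged 3.68 to 4.39 in every array, below each array's median over all genes.

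**Figure D1:**
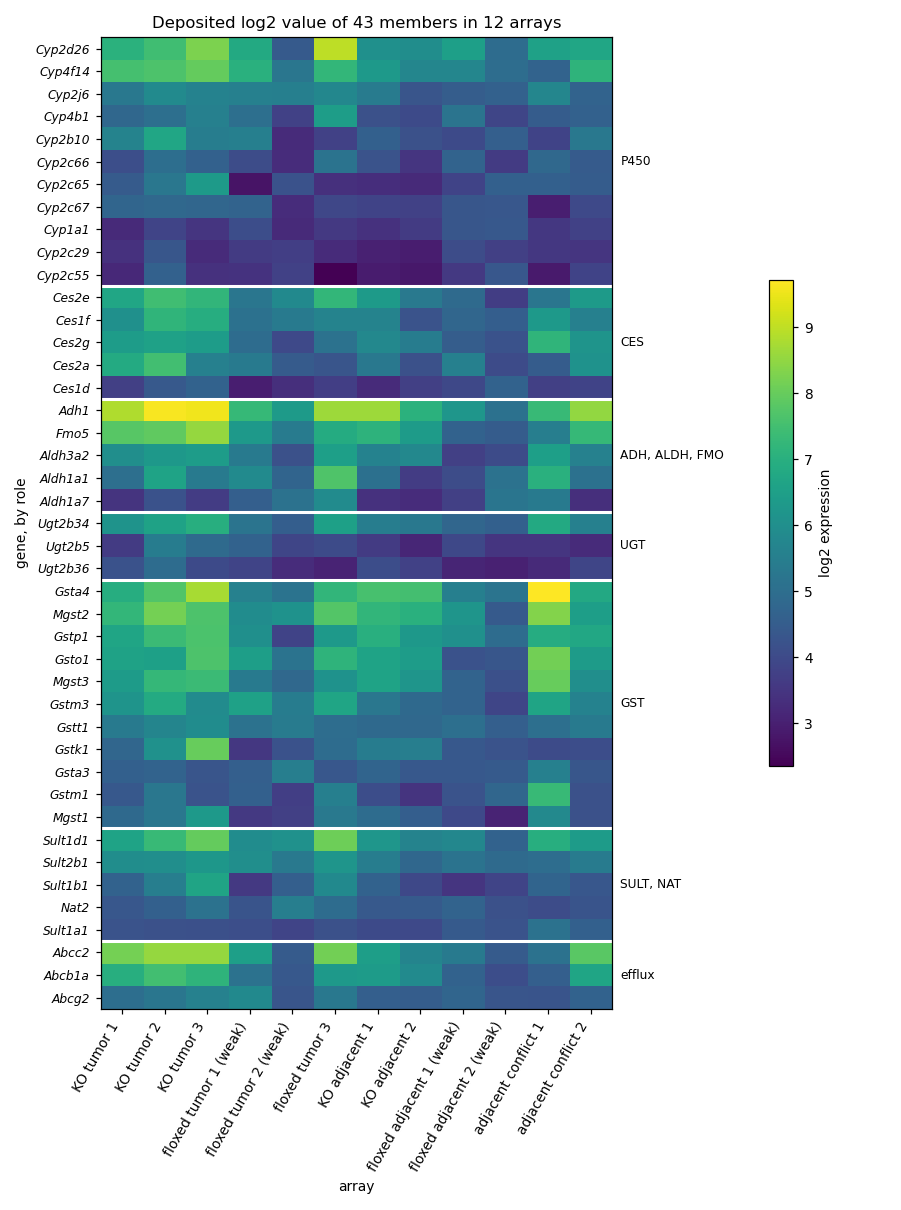
Deposited log2 expression of the 43 measured genes (rows, grouped by role and ordered by mean within a role) in the 12 arrays (columns; weak marks the 4 arrays of weak signal). Adh1 reaches 9.65 in KO tumor array 2, and conflict array 1 stands out in the glutathione transferase block, with Gsta4 at 9.72.

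Averaged over the 43 genes, the set was at 5.54, 6.17 and 6.15 in the KO tumor arrays, 5.07, 4.56 and 5.68 in the floxed tumor arrays, 5.19 and 4.77 in the KO adjacent arrays, and 4.66 and 4.35 in the floxed adjacent arrays. Conflict arrays 1 and 2 were at 5.47 and 5.29. The highest value of a gene fell in KO tumor array 2 for 14 genes, in KO tumor array 3 for 10, in conflict array 1 for 9 and in floxed tumor array 3 for 6. The lowest value fell in the weak-signal arrays floxed adjacent 2 and floxed tumor 2 for 12 and 10 genes. Absorptive enterocyte markers (23 genes) followed a similar order of arrays: 7.52, 8.14 and 7.90 in KO tumor, 7.02, 5.52 and 8.28 in floxed tumor, 6.73 and 5.85 in KO adjacent, 5.60 and 4.74 in floxed adjacent, and 6.07 and 7.30 in the conflict arrays. In such dissected samples fewer cells of a type and less RNA per cell cannot be told apart, and the part of enterocyte content in the results below was not tested.

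**Figure D2:**
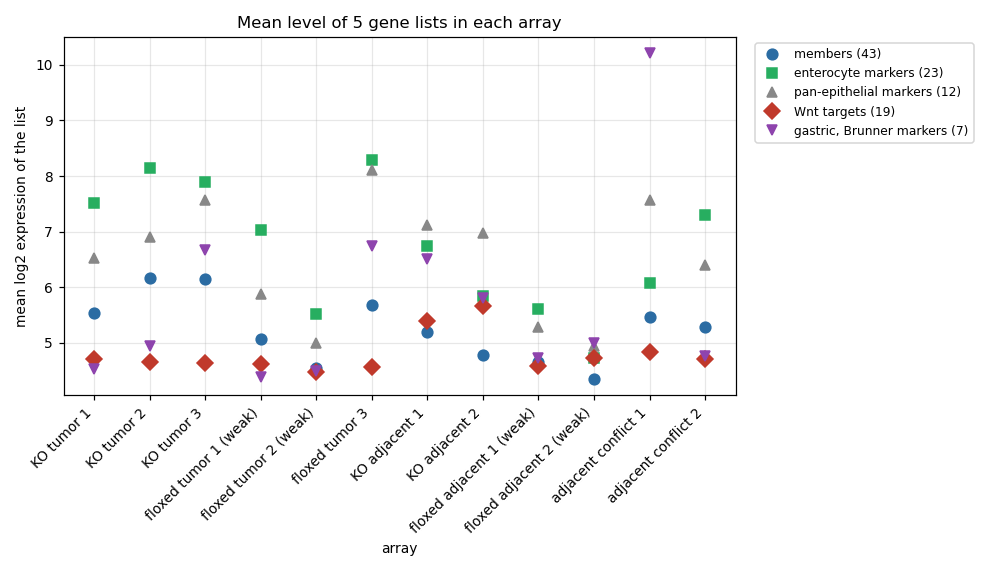
Mean log2 expression (vertical axis) of the 43 detoxification genes and of 4 marker lists in each of the 12 arrays (horizontal axis); each symbol is the mean of one list in one array. Wnt targets are highest in the 2 KO adjacent arrays (5.39 and 5.66), enterocyte markers reach 8.28 in floxed tumor array 3, and gastric and Brunner gland markers reach 10.20 in conflict array 1.

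The first comparison asked how tumor differed from adjacent epithelium within KO animals, where no array had weak signal. Of the 43 genes, 42 had a higher mean in the arrays labelled tumor, the ones with the lower Wnt target levels, with a median difference of 0.86 against 0.04 over all genes, and only Gsta3 did not (-0.03). For 28 genes all 3 tumor arrays lay above both adjacent arrays and for 0 genes below, while 17.9% of all genes lay above and 14.1% below. In the fit of the 10 arrays with an undisputed genotype, which pools the spread of the weak-signal arrays, limma called 0 of the 43 (background 0.0201%, that is 4 genes, all lower in tumor); 17 of the 43 had an unadjusted p under 0.05, as had 492 of all genes. Fitted on the 5 KO arrays alone, 7 of the 43 were called, all higher in tumor: Abcc2, Abcb1a, Cyp4f14, Cyp2d26, Cyp2c67, Ces2g and Ugt2b34. The background in that fit was 1.85% (0.557% higher). The 7 became 12, 1 and 13 without KO tumor array 1, 2 or 3, at backgrounds of 1.57%, 0.281% and 3.17%, and 2 and 0 without KO adjacent array 1 or 2, at 0.321% and 0.0502%. With array weights in the 10-array fit the count was 23, all higher, at a background of 5.23% (2.04% higher, 3.19% lower). With the block it was 0, at 0.0301%. Ranges of adjusted p given below for this comparison cover only the alternatives within the 5-array fit. In the 10-array fit each of the 7 had an adjusted p of 0.999913.

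Among the efflux pumps, Abcc2 (MRP2), which exports glucuronide and glutathione conjugates across the apical membrane, was at 8.19, 8.55 and 8.54 in KO tumor and at 6.49 and 5.68 in KO adjacent. The groups did not overlap, and the difference was 2.34 ± 0.24 (SE; adjusted p = 0.00687 in the 5-array fit, 0.00293 to 0.0800 over its alternatives there). Floxed tumor showed 6.50, 4.46 and 8.16 and floxed adjacent 5.38 and 4.48. The array of floxed tumor without weak signal was thus close to KO tumor, and the weak-signal ones spread widely. Conflict array 1 was at 5.14, below both KO adjacent arrays, and conflict array 2 was at 7.82, above them. Abcb1a (P-glycoprotein), a pump of hydrophobic drugs, was at 6.96, 7.50 and 7.14 in KO tumor and 6.38 and 5.88 in KO adjacent. It was higher in tumor by 1.07 ± 0.21 (adjusted p = 0.0470 in the 5-array fit, 0.0335 to 0.426 over its alternatives). In floxed arrays Abcb1a was at 5.13, 4.37 and 6.30 in tumor and at 4.67 and 4.10 in adjacent epithelium, and the conflict arrays were at 4.59 and 6.68. All KO tumor values lay above all others. Abcg2 (BCRP), the third pump, ranged from 4.26 to 5.86 and was not called in the 5-array fit (KO tumor minus KO adjacent 0.72 ± 0.19, adjusted p = 0.109).

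P450s carry out most phase I oxidations. All 11 measured had a higher mean in KO tumor than in KO adjacent arrays (median 0.99, range 0.03 to 2.09), and 3 were called in the 5-array fit. Cyp4f14, which hydroxylates leukotriene B4 and long-chain fatty acids, was at 7.55, 7.65 and 7.98 in KO tumor and 6.35 and 5.72 in KO adjacent. The difference was 1.69 ± 0.21 (adjusted p = 0.0143 in the 5-array fit, 0.00625 to 0.187 over its alternatives there). Cyp4f14 stood at 7.03, 5.23 and 7.23 in floxed tumor, 5.74 and 4.98 in floxed adjacent, and 4.69 and 7.15 in the conflict arrays. No KO tumor value overlapped another group. Cyp2d26 was at 7.07, 7.46 and 8.27 in KO tumor and 6.05 and 5.95 in KO adjacent. Its difference was 1.60 ± 0.30 (adjusted p = 0.0433 in the 5-array fit, 0.00756 to 0.380 over its alternatives there). The highest Cyp2d26 value was 8.99 in floxed tumor array 3, next to 6.82 and 4.43 in the other floxed tumor arrays; floxed adjacent arrays gave 6.50 and 4.94, and the conflict arrays 6.57 and 6.71. Cyp2c67 lay in a narrow band in KO arrays, at 4.75, 4.83 and 4.79 in tumor and 3.83 and 3.77 in adjacent epithelium. Its difference was 0.99 ± 0.13 (adjusted p = 0.0148 in the 5-array fit, 0.0102 to 0.208 over its alternatives there). Elsewhere Cyp2c67 was at 4.69, 3.29 and 3.91 in floxed tumor, 4.32 and 4.35 in floxed adjacent, and 2.96 and 3.97 in the conflict arrays. Both floxed adjacent values, from weak-signal arrays, were above both KO adjacent values, the reverse of the order seen in tumor. Among all genes of its signal level, 26.4% had a higher mean in KO adjacent than in floxed adjacent arrays.

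Cyp2c65, a fatty-acid epoxygenase of the gut whose upstream stretch is printed above, had the largest mean P450 difference in KO arrays. It was at 4.46, 5.28 and 6.36 in KO tumor and 3.31 and 3.23 in KO adjacent (2.09 ± 0.44, adjusted p = 0.0602), with no overlap and a wide spread in tumor. Cyp1a1, the classic target of the dioxin receptor, stayed between 3.22 and 4.38 in the 12 arrays, and its KO difference was 0.03 ± 0.20. Cyp2b10, the classic CAR target, differed by 1.55 ± 0.34 (adjusted p = 0.0681). The neighbours Cyp2c29 and Cyp2c66 differed by 0.68 ± 0.29 and 0.73 ± 0.29, and neither was called.

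Carboxylesterases hydrolyse ester and amide drugs as well as acylglycerols. All 5 measured were higher on average in KO tumor (0.78 to 1.90), and Ces2g was called. Ces2g was at 6.41, 6.56 and 6.42 in KO tumor and 5.79 and 5.44 in KO adjacent (0.85 ± 0.15, adjusted p = 0.0378 in the 5-array fit, 0.0270 to 0.355 over its alternatives). In floxed arrays it was at 4.95, 3.97 and 5.13 in tumor and 4.52 and 4.22 in adjacent epithelium. Conflict array 1 held the highest value, 7.17, and conflict array 2 was at 6.16. Among arrays of undisputed genotype, every KO value of Ces2g thus exceeded every floxed value, floxed tumor array 3 included. Both conflict arrays lay above both KO adjacent arrays, so under either reading of their labels this order would not hold. Ces2e was at 6.70, 7.47 and 7.21 in KO tumor, 6.36 and 5.33 in KO adjacent, 5.24, 5.84 and 7.22 in floxed tumor, 4.89 and 3.68 in floxed adjacent, and 5.24 and 6.37 in the conflict arrays. Its KO difference was 1.28 ± 0.32 (adjusted p = 0.0972). Floxed tumor array 3 lay within the KO tumor range for Ces2e, unlike for Ces2g. Ces2a (1.90 ± 0.53) and Ces1f (1.78 ± 0.43) had larger mean differences with adjusted p of 0.139 and 0.0927.

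The dehydrogenases and the flavin monooxygenase gave 5 higher means in KO tumor and 0 calls in the 5-array fit. Adh1, which oxidizes ethanol and retinol, was at 8.83, 9.65 and 9.57 in KO tumor, 8.65 and 7.05 in KO adjacent, 7.28, 6.36 and 8.62 in floxed tumor, 6.22 and 5.10 in floxed adjacent, and 7.33 and 8.54 in the conflict arrays. KO tumor was above KO adjacent by 1.50 ± 0.43 (adjusted p = 0.150), and the adjacent arrays were themselves far apart. Fmo5, a flavin monooxygenase that acts on ketones, was at 7.79, 7.93 and 8.56 in KO tumor and 7.10 and 6.39 in KO adjacent (1.35 ± 0.27, adjusted p = 0.0526). It was at 6.32, 5.42 and 6.88 in floxed tumor, 4.65 and 4.51 in floxed adjacent, and 5.51 and 7.28 in the conflict arrays. Aldh3a2, the fatty aldehyde dehydrogenase, was at 5.98, 6.27 and 6.42 in KO tumor, 5.61 and 5.80 in KO adjacent, 5.39, 4.19 and 6.50 in floxed tumor, 3.75 and 4.02 in floxed adjacent, and 6.52 and 5.58 in the conflict arrays. Only the floxed adjacent arrays and floxed tumor array 2, all of weak signal, fell below 5 for Aldh3a2. The retinal dehydrogenase Aldh1a1 and its close relative Aldh1a7 were also higher on average in KO tumor than in KO adjacent (1.33 and 0.43). Their highest values were in floxed tumor array 3 (7.68 and 5.90).

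UDP-glucuronosyltransferases attach glucuronic acid, and all 3 measured had higher means in KO tumor (0.46 to 1.27). Ugt2b34 was called: it was at 6.14, 6.59 and 6.97 in KO tumor and 5.46 and 5.30 in KO adjacent (1.19 ± 0.23, adjusted p = 0.0455 in the 5-array fit, 0.0196 to 0.397 over its alternatives). Floxed arrays gave 5.18, 4.56 and 6.55 in tumor and 4.78 and 4.61 in adjacent epithelium, and the conflict arrays 6.82 and 5.57. Floxed tumor array 3 was within the KO tumor range. Ugt2b5 had a slightly larger difference with more spread (1.27 ± 0.45, adjusted p = 0.248).

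**Figure D3:**
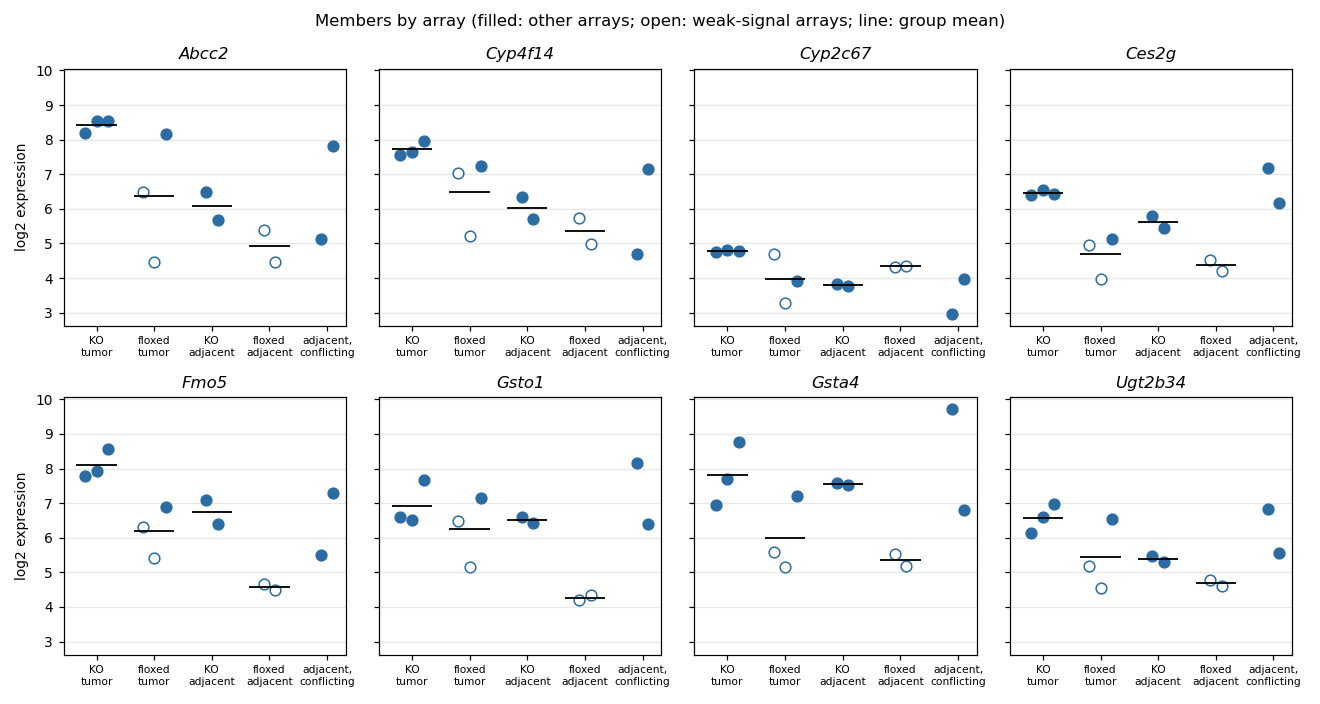
Deposited log2 expression (vertical axis) of 8 genes in each array, by label group (horizontal axis); filled points are the 8 other arrays, open points the 4 weak-signal arrays, and lines group means. Abcc2 and Cyp4f14 are higher in all KO tumor than in all KO adjacent arrays, while Gsta4 and Gsto1 overlap between these groups and are low in the floxed adjacent arrays (4.20 and 4.33 for Gsto1).

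Glutathione transferases had the lowest median difference of the 7 roles in this tissue comparison. Of the 11 measured, 10 had a higher mean in KO tumor, the median was 0.59, and 0 were called in the 5-array fit. Gsta4, which conjugates the lipid peroxidation product 4-hydroxynonenal, was at 6.94, 7.71 and 8.76 in KO tumor and 7.58 and 7.52 in KO adjacent. These groups overlapped (0.25 ± 0.43). Floxed tumor values of Gsta4 were 5.60, 5.16 and 7.20, floxed adjacent 5.54 and 5.20, and the conflict arrays 9.72 and 6.79. Gsto1, an omega-class enzyme with thioltransferase activity, was at 6.60, 6.53 and 7.67 in KO tumor, 6.61 and 6.42 in KO adjacent, 6.48, 5.15 and 7.14 in floxed tumor, 4.20 and 4.33 in floxed adjacent, and 8.15 and 6.39 in the conflict arrays. The KO groups overlapped here as well, and both floxed adjacent values lay far below. Mgst3, a membrane-bound enzyme that reduces lipid hydroperoxides, was at 6.38, 7.26 and 7.36 in KO tumor, 6.62 and 6.20 in KO adjacent, 5.39, 4.84 and 6.12 in floxed tumor, 4.71 and 4.14 in floxed adjacent, and 8.00 and 6.004 in the conflict arrays. Gstk1, found in mitochondria and peroxisomes, was the most variable in KO tumor, at 4.78, 6.08 and 8.01, with 5.46 and 5.50 in KO adjacent, 3.55, 4.21 and 4.94 in floxed tumor, 4.38 and 4.24 in floxed adjacent, and 4.02 and 4.08 in the conflict arrays. Its value in KO tumor array 3 was the highest of all 12. Gstm3 (1.25 ± 0.27, adjusted p = 0.0605) and Gstt1 (0.82 ± 0.18, adjusted p = 0.0696) came closest to the call.

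Sulfotransferases and the arylamine N-acetyltransferase Nat2 gave 5 higher means in KO tumor (0.21 to 1.39) and 0 calls. Sult1d1, which sulfates catecholamines and other small phenols, was at 6.62, 7.31 and 7.98 in KO tumor, 6.21 and 5.63 in KO adjacent, 5.92, 6.08 and 8.10 in floxed tumor, 5.76 and 4.68 in floxed adjacent, and 6.97 and 6.40 in the conflict arrays. KO tumor was higher by 1.39 ± 0.35 (adjusted p = 0.108), and floxed tumor array 3 held the top value. Sult2b1, a sterol sulfotransferase, differed by 0.93 ± 0.20 (adjusted p = 0.0681).

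Beside the members, other genes of the same pathways had lower median differences in the KO comparison. The members were chosen with earlier results of these data known, so this order is not a test. The other phase I, phase II and exporter lists were also dimmer. They averaged 4.12 to 4.76 in the KO tumor arrays, below the member averages given above. Of 84 other phase I genes, 72 had a higher mean in KO tumor (median 0.31) and 6 were called in the 5-array fit, all higher: Adh6a (1.53), Fmo4 (1.01), Adh4 (0.95), Akr1c14 (0.93), Cyp4f15 (0.81) and Fmo2 (0.73). Of 40 other phase II genes, 28 were higher (median 0.15), and Ugt2a3 (1.28) and Gstm6 (1.07) were called. The 11 other exporters had a median of 0.06 and 0 calls. Of 17 regulators, all had a higher mean and 2 were called: Hnf4g rose by 1.50 ± 0.25 (adjusted p = 0.0310) and Nr1i3, encoding CAR, by 1.05 ± 0.18 (adjusted p = 0.0319). Hnf4a (0.25 ± 0.24) and Nr1i2, encoding PXR (0.84 ± 0.26), were not called. In the same fit 9 of 23 enterocyte markers were called, all higher in tumor, and 9 of 19 Wnt targets, all lower. The gastric and Brunner gland marker Gkn3 was called lower in KO tumor than in KO adjacent in the fit of all arrays with an undisputed genotype. The KO groups thus also differed in a gland marker, and its part in the member differences was not tested.

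The same tissue comparison in floxed arrays involved 4 weak-signal arrays of 5. There 32 of the 43 genes had a higher mean in tumor, the median was 0.63 against -0.01 over all genes, and 11 genes were higher and 4 lower without overlap (8.64% and 10.1% of all genes). The 10-array fit called 0 of the 43, and 1 gene in all (0.00502%); 12 of the 43 and 2495 of all genes had an unadjusted p under 0.05. A fit on the 5 floxed arrays called 0 genes, and 8 of the 43 had an unadjusted p under 0.05. Without floxed tumor array 2 the 10-array fit called 5 of the 43, all higher in tumor, at a background of 1.72% (1.07% higher, 0.652% lower). Over all 12 arrays by tissue label, 37 of the 43 had a higher mean in tumor, the median difference was 0.58 against 0.0045 over all genes, and 0 of 43 were called (0.0% of all genes; 11 of the 43 and 513 of all genes had an unadjusted p under 0.05). Without the weak-signal arrays 38 of the 43 were higher, with a median of 0.77 and again 0 calls. With array weights 7 were called, at a background of 0.637%: Abcc2, Abcg2, Cyp2c67, Cyp2d26, Cyp4f14, Gstm3 and Sult2b1.

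The second comparison was of genotypes in tumor epithelium. The mean was higher in KO for 37 of the 43 genes, by a median of 0.86 against -0.01 over all genes, and limma on the 10 arrays called 2 of the 43, Ces2g and Fmo5, both higher in KO. The background was 1.08% of all genes (0.682% higher and 0.396% lower). With array weights 8 were called, all higher, against 14.6% of all genes (6.34% higher, 8.24% lower). Arrays did not overlap for 14 genes that were higher and 1 that was lower in KO (13.2% and 13.9% of all genes). This comparison and that of KO tumor with KO adjacent share the KO tumor arrays, and their values are therefore not independent. The genotype difference went from below 0 in dim genes to above 0 in bright genes in general. With genes divided into 5 equal classes of mean signal, the dimmest class had a median difference of -0.65 and the brightest 0.52. The 22 members in the brightest class had a median of 1.18. For KO tumor against KO adjacent the brightest class had a median of 0.06 and its members 1.22.

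For Ces2g the KO tumor values of 6.41, 6.56 and 6.42 stood against 4.95, 3.97 and 5.13 in floxed tumor, a difference of 1.78 ± 0.31 (adjusted p = 0.0367; 0.00155 to 0.198 over the alternatives). Fmo5 differed by 1.89 ± 0.38 (adjusted p = 0.0478; 0.00194 to 0.216). Neither call held when only these 6 arrays were fitted (0 of 43; 8 genes in all, 0.0401%, with 0.0351% higher; 17 of the 43 and 3774 of all genes at an unadjusted p under 0.05). The replicate number of the titles was also used as a block, although a pairing by number was not established. With it 11 members were called, all higher in KO, at a background of 3.92% (2.15% higher, 1.77% lower): Abcb1a, Adh1, Ces2a, Ces2g, Cyp2c65, Fmo5, Gsta4, Gstk1, Gstp1, Mgst1 and Mgst3. Gstp1 was at 6.69, 7.38 and 7.63 in KO tumor and 6.02, 3.83 and 6.33 in floxed tumor. Mgst1 was at 4.87, 5.26 and 6.33 against 3.57, 3.76 and 5.34, so floxed tumor array 3 lay within the KO range for Mgst1. Leaving out arrays in turn gave 0 to 1 calls (0.0502% to 0.386% of all genes), except that 21 were called, all higher in KO, without floxed tumor array 3, where the background was 29.1% (14.0% higher, 15.1% lower).

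Compared with floxed tumor array 3 alone, the one without weak signal, the picture was mixed. Only 25 of the 43 genes had a higher mean in KO, and the median difference was 0.19, against 0.02 over all genes. The fit without the weak-signal arrays, in which that single array is assumed to vary like the others, called 8 genes higher in KO and 3 lower, at a background of 19.4% (9.47% higher, 9.92% lower). Higher were Ces2a (2.34), Cyp2b10 (2.18), Cyp2c65 (2.00), Ces2g (1.34), Ugt2b36 (1.29), Fmo5 (1.21), Abcb1a (0.90) and Cyp2c67 (0.87). Lower were Aldh1a7 (-2.12), Cyp2d26 (-1.39) and Cyp4b1 (-1.32). Ces2a, which hydrolyses acylglycerols, was at 6.87, 7.49 and 5.56 in KO tumor and 5.37, 4.46 and 4.29 in floxed tumor. Cyp2b10 was at 5.66, 6.72 and 5.46 against 5.52, 3.25 and 3.76, so floxed tumor array 1 overlapped KO tumor. Ugt2b36 was at 4.21, 4.95 and 4.00 in KO tumor and 3.86, 3.29 and 3.10 in floxed tumor, without overlap. Cyp2c65 was at 2.73, 4.22 and 3.36 in floxed tumor, below its KO tumor values given above. Aldh1a7 was at 3.46, 4.20 and 3.67 in KO tumor and 4.57, 5.12 and 5.90 in floxed tumor, so every floxed value was the higher. Cyp4b1 was at 4.81, 5.04 and 5.56 in KO tumor and 5.04, 3.76 and 6.46 in floxed tumor, with array 3 the highest of the 6. Cyp2d26 and Cyp4b1 changed direction against the fit with all floxed tumor arrays, where they were at 0.85 ± 0.89 and 0.05 ± 0.58. All 3 KO tumor values lay above floxed tumor array 3 for 18 genes and below it for 8, while 38.7% of all genes lay above and 35.3% below. Enterocyte markers averaged 8.28 in that array, above each KO tumor array, and exocrine pancreas markers (10 measured) averaged 8.15, against 4.15, 6.81 and 4.12 in KO tumor. Their part in these differences was not tested.

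**Figure D4:**
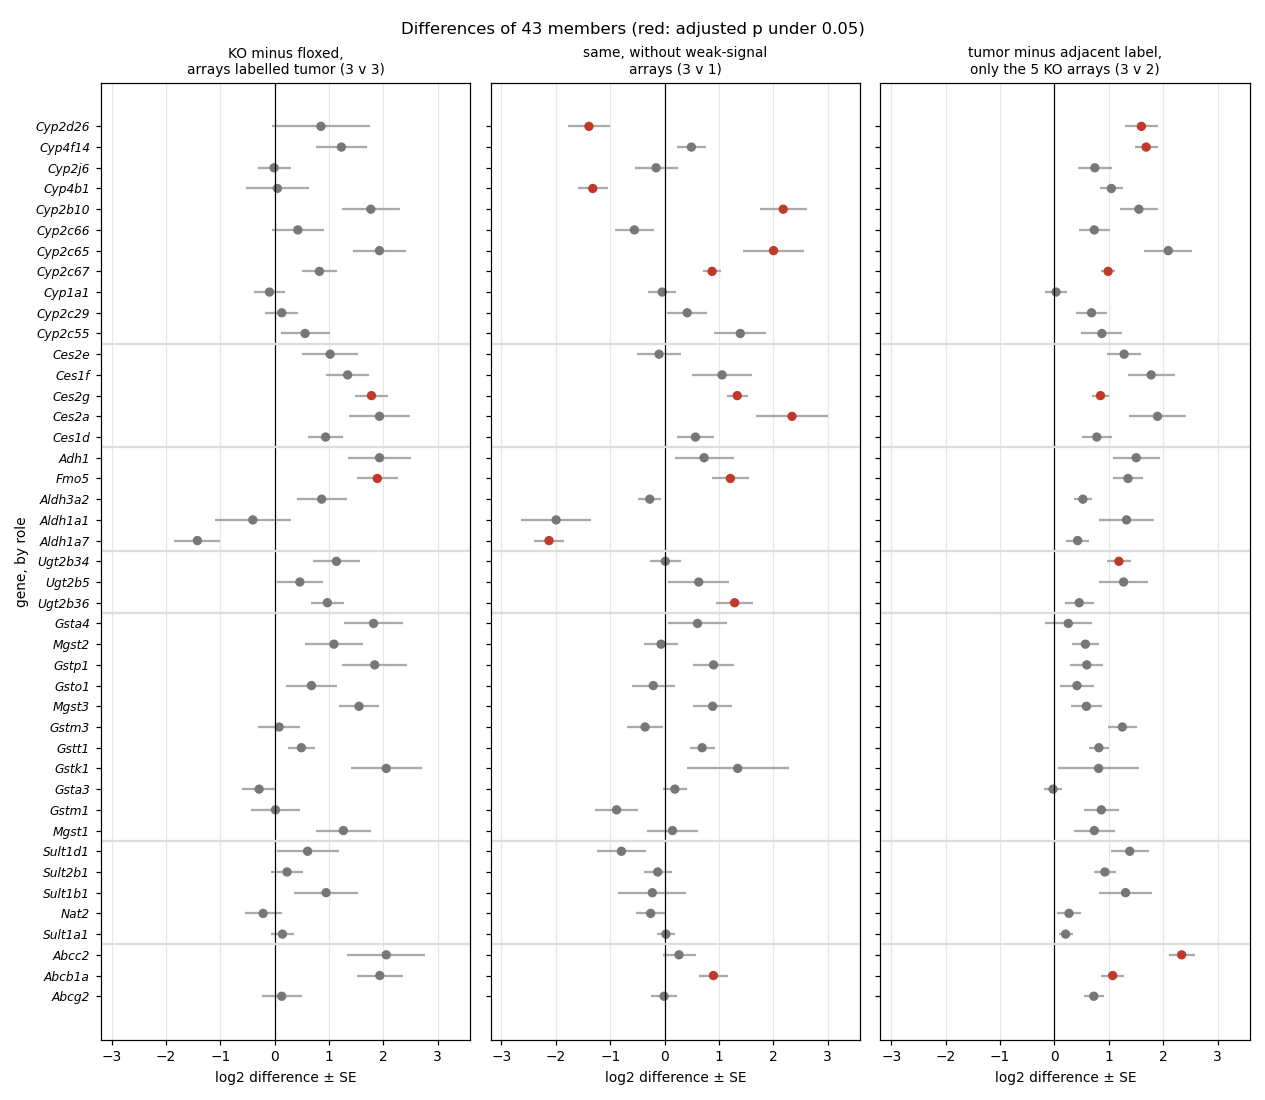
Log2 differences (horizontal axis, point and SE) of the 43 genes by role (vertical axis) for KO minus floxed tumor arrays with all arrays, the same without weak-signal arrays, and KO tumor minus KO adjacent in the 5-array fit; red points passed an adjusted p of 0.05. In the right panel 42 of 43 points lie above 0, in the left panel 37 and in the middle panel 25, where Aldh1a7, Cyp2d26 and Cyp4b1 are called lower.

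By role, the difference between KO and floxed tumor in the 10-array fit was above 0 for 9 of 11 P450s, 5 of 5 carboxylesterases, 3 of 5 dehydrogenases and monooxygenases, 3 of 3 glucuronosyltransferases, 10 of 11 glutathione transferases, 4 of 5 sulfo- and acetyltransferases and 3 of 3 pumps. Without the weak-signal arrays it was above 0 for 6 of 11 P450s, 4 of 5 carboxylesterases, 2 of 5 dehydrogenases and monooxygenases, 3 of 3 glucuronosyltransferases, 7 of 11 glutathione transferases, 1 of 5 sulfo- and acetyltransferases and 2 of 3 pumps. The median of the dehydrogenases and monooxygenases went from 0.86 to -0.27 and that of the sulfo- and acetyltransferases from 0.23 to -0.22, while the glutathione transferase median went from 1.09 to 0.19 and that of the pumps from 1.93 to 0.27. Ephx1, the microsomal epoxide hydrolase, was the only called gene of the 84 other phase I genes. It was at 4.77, 5.72 and 6.72 in KO tumor and 3.98, 3.41 and 3.48 in floxed tumor, so that here floxed tumor array 3 was as low as the weak-signal arrays (2.11 ± 0.42, adjusted p = 0.0478). None of the 40 other phase II genes, 11 other exporters or 17 regulators was called in that fit. The regulators' median was 0.39 there, with 13 of 17 above 0. Without the weak-signal arrays it was -0.56, with 4 of 17 above 0 and 6 called, all lower in KO, at the background of 9.92% lower.

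In adjacent epithelium KO and floxed could be compared with 2 arrays each, and both floxed arrays had weak signal, so signal strength and genotype cannot be told apart. The median difference was 0.27, against -0.04 over all genes, and 28 of the 43 genes had a higher mean in KO. Without KO adjacent array 1 the median was 0.034 with 23 of the 43 above 0, and without KO adjacent array 2 it was 0.77 with 31 above 0. Limma on the 10 arrays called 3, all higher in KO (background 6.06%, with 2.91% higher and 3.15% lower): Gsto1 by 2.25 ± 0.57 (adjusted p = 0.0460; 0.0113 to 0.552 over the alternatives), Fmo5 by 2.16 ± 0.46 (adjusted p = 0.0309; 0.00952 to 0.487) and Mgst3 by 1.99 ± 0.46 (adjusted p = 0.0353; 0.0174 to 0.638). Fitted on these 4 arrays alone, 8 were called at a background of 17.2% (8.92% higher, 8.31% lower): the same 3 with Abcb1a, Aldh3a2, Ces2g, Gsta4 and Gstk1. With array weights 8 were called (background 20.2%, 9.34% higher), and with the title numbers as a block 8 (12.3%, with 6.29% higher and 5.99% lower). Leaving out any 1 of the 4 arrays gave 0 calls, at backgrounds of 0.00502% to 2.14%. Groups did not overlap for 18 genes higher and 9 lower in KO, near the 32.1% and 35.0% of all genes. The 22 members in the brightest class had a median of 1.15, against 0.79 over all genes of that class. Pan-epithelial markers were at 7.12 and 6.98 in the KO adjacent arrays and at 5.29 and 4.94 in the floxed adjacent arrays. Among the other pathway genes, 3 phase I genes (Cyp2c37, Cyp4x1 and Cyp2d34) and 3 phase II genes (Sult6b1, Sult3a1 and Ugt3a1) were called, all lower in KO, by 1.09 to 1.96 on the log2 scale. Apart from Cyp2d34 they belong to the dimmest of the 5 signal classes, whose genes as a whole had a median difference of -0.89 with 5.27% above 0. Cyp2c37 was at 2.80 and 3.07 in KO adjacent and at 4.94 and 4.77 in floxed adjacent, while it was between 2.81 and 4.34 in the other 8 arrays.

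The test of whether the tissue difference itself depended on genotype called 0 of the 43 genes and 0 genes in all (0.0%); 5 of the 43 and 1281 of all genes had an unadjusted p under 0.05. Cyp2c65 came closest, with a tissue difference 2.89 ± 0.77 larger in KO (adjusted p = 0.703), followed by Ces1d (1.76 ± 0.52), Cyp2c67 (1.36 ± 0.50), Cyp2c55 (1.65 ± 0.71) and Ces2a (1.99 ± 0.88). Apart from Ces2a these are dim genes, and the floxed side rests mostly on weak-signal arrays. In the 2 dimmest signal classes, all genes had floxed tumor minus adjacent medians of -0.20 and -0.11, against 0.04 and 0.05 in KO.

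The conflict arrays, which entered no genotype comparison, differed from each other in several members. Across the 43 genes, which are not independent replicates, their values correlated at 0.58, and 19 genes were above the KO adjacent mean in both. Conflict array 1 was above both KO adjacent arrays for 25 genes and below both for 11. Conflict array 1 was the highest of the 12 arrays for 9 genes, among them Gsta4 (9.72), Mgst2 (8.36), Gsto1 (8.15), Mgst3 (8.00), Gstm1 (7.31) and Ces2g (7.17). It was low for Abcc2 (5.14), Cyp4f14 (4.69), Abcb1a (4.59) and Cyp2c67 (2.96). The same array held the highest gastric and Brunner gland marker mean (7 genes, 10.20 against 4.38 to 6.73 in the others) and a high exocrine pancreas mean (7.79), and their part in its member values was not tested. Conflict array 2 was also above both KO adjacent arrays for 25 of the 43 genes, and it was below all KO tumor arrays for 31. Across the 43 genes its values correlated at 0.975, 0.930 and 0.856 with the KO tumor arrays. With the KO adjacent arrays it was 0.913 and 0.848, and with floxed tumor array 3 0.767. Conflict array 1 gave 0.574 to 0.579 with KO tumor, 0.704 and 0.693 with KO adjacent and 0.696 with floxed tumor array 3. Which of their labels is right was not tested.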

How the data were processed

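The 12 samples were hybridised with a GeneChip WT Pico kit and a biotin label, per the labels' protocols. The authors deposited 1 table of log2 expression values per probe set and array; the submitters' processing notes name Partek and RMA, robust multi-array averaging, and no version. The sources used here name no genome build for the arrays, and no detection p-value was used, so dim values carry no call of presence.

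Of 35556 probe sets, 21789 had 1 gene symbol in the platform annotation, 1621 had several and 12146 had none; those without exactly 1 were not named. Through their Entrez numbers 21698 were found in RefSeq's mouse genes (GRCm38.p6), which altered 0 symbols. For a gene with several probe sets (999 genes) the brightest on average was kept, which left 19938 genes. Only Gstm3 among the members had more than 1.

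Differences were fitted with limma 3.58.1 in R 4.3.3 (lmFit, eBayes, two-sided) across all genes, with Benjamini-Hochberg adjustment over all of them and a call at an adjusted p under 0.05. The main fit held 4 groups in 10 arrays, and tissue over 12 arrays was fitted separately. The script was tested on simulated data. Weak-signal arrays are those with a median correlation with the others under 0.7. Alternatives were quantile normalization, leaving out the dimmest 30% of genes, the mean of a gene's probe sets, trended robust variance, array weights, fits on only the arrays compared, the replicate block, leaving out arrays, an adjusted p under 0.1, and either reading of the conflicting labels. Within the 5-array fit, quantile normalization and leaving out arrays were added after seeing the data.

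Deviations of same-numbered tumor arrays of both genotypes correlated at 0.105, 0.121 and 0.347 across genes. Among differently numbered tumor arrays, KO 1 with floxed 2 reached 0.246, and the other pairs gave -0.291 to 0.0762. Same-numbered KO tumor and KO adjacent arrays gave 0.0125 and -0.129. These values do not establish that the numbers pair arrays, so the replicate block is only an alternative and its counts rest on an assumed pairing. The members, marker lists and pathway lists were chosen with earlier results of these data known. By the rule for named genes, values in every array are given for members called in the 10-array fit, the 12-array fit or the fits on only the arrays compared, and for the member of highest mean signal in each role; for members called only in other alternatives, tumor array values, a difference or the name is given. Genes of other lists could be named where called, but not every called one is named above. Markers called in the 10-array fit for KO minus floxed tumor were Col3a1, higher in KO, and S100a8, lower. For adjacent epithelium they were Nkd1, Notum, Cd44, Ccnd1, Clca1, Agr2, Dcn, Sparc, Gkn3 and Trf, higher in KO, and Dkk2, lower. For KO tumor minus KO adjacent Gkn3 was called, lower in tumor. Motif letters were chosen after the values were seen. Differences in printed levels between genes also reflect their probe sets.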

Additional observations from a re-analysis of the deposited data

Results flagged for a closer look

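Within the 6 arrays labelled tumor and the 6 labelled adjacent, the highest or lowest value of a gene was set against the whole range (Dixon's ratio, critical value 0.625); 86 such groups were examined and 6 passed, where chance gives about 1 in 20. Floxed tumor array 2, of weak signal, was lowest for Sult2b1 (ratio 0.701; 5.34 against 5.97 to 6.24 in the others), Sult1a1 (0.687; 3.87 against 4.12 to 4.23) and Cyp4f14 (0.655; 5.23 against 7.03 to 7.98). It was highest for Gsta3 (0.666; 5.52 against 4.29 to 4.70). Conflict array 1 was the highest adjacent array for Gsta3 (0.684; 5.57 against 4.33 to 4.72) and for Gstm1 (0.652; 7.31 against 3.45 to 4.79).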

How the results depend on the processing

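For KO against floxed tumor, the 2 called members became 0 with quantile normalization, 0 with only the arrays compared, 0 when titles decided the contradictory labels and 0 when genotype entries did, 1 without the dimmest genes, 1 with trended robust variance, 7 at an adjusted p under 0.1, 8 with array weights, 11 with the replicate block and 11 without weak-signal arrays. Leaving out each array gave 0 to 21. In adjacent epithelium the 3 calls became 0 with quantile normalization, trended robust variance or either reading of the labels, 8 with array weights, only the arrays compared, the replicate block (2 pairs, deviations correlating at 0.00986) or an adjusted p under 0.1, and 0 to 0 when each array was left out. For tumor against adjacent in KO, 0 became 23 with array weights and 7 with only the KO arrays, which are also the fit without weak-signal arrays. Within that fit it was 10 after quantile normalization, and 12, 1, 13, 2 and 0 when KO tumor 1, 2, 3 or KO adjacent 1, 2 was left out. In floxed arrays it was 0 to 5 when each array was left out, and over 12 arrays 7 with array weights. The replicate block called 0 members in the tissue comparisons, as without it. KO minus floxed tumor reversed for Cyp2d26 without weak-signal arrays (-1.39) or floxed tumor array 2 (-0.31), and for Cyp4b1 without weak-signal arrays (-1.32), KO tumor array 3 (-0.16) or floxed tumor array 2 (-0.61); leaving out each array gave up to 1.97 and 0.73. The cause of these changes was not tested. The number of arrays, 2 or 3 a group, and the weak signal of 4 of them limit the precision.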
